A study of Mus musculus with 3 samples.

Results

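The genes of oxidative phosphorylation were followed across the cell classes of the mouse nucleus accumbens. Members were the gene symbols of the deposited matrix that begin with Nduf followed by a, b, c, s or v, with Uqcr, with Cox4 to Cox8 or with Atp5, the symbols Sdha, Sdhb, Sdhc and Sdhd, and the mitochondrially encoded symbols that begin with mt-Nd, mt-Co, mt-Cytb or mt-Atp. The rule found 105 genes of 28001 features. Of these, 92 are encoded in the nucleus and 13 in the mitochondrial genome. Among the nuclear members, 83 are subunits or subunit paralogs, and 9 are assembly factors (Ndufaf genes) or other proteins that are not subunits (Atp5s, Atp5sl). Calls of these 9 were also counted apart, but those tested are included in the numbers of called genes given for complex I.

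Oxidative phosphorylation passes electrons from NADH and succinate along a chain of complexes in the inner mitochondrial membrane and uses the resulting proton gradient to make ATP. Complex I (Nduf genes) and complex II (Sdh genes) feed electrons to complex III (Uqcr genes), cytochrome c carries them to complex IV (Cox genes), and complex V (Atp5 genes) is the ATP synthase. The mitochondrial genome encodes core subunits of every complex other than complex II. Several nuclear subunits of complex IV exist as isoforms whose use differs between tissues, and in brain this machinery supplies much of the ATP that neurons spend on ion pumping.

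The series consists of 3 single-cell libraries of a single group: Thy1::ChR2 mice, which carry channelrhodopsin under the Thy1 promoter, with FLiCRE, a reporter system that marks cells in which light and raised calcium coincide, applied during optogenetic stimulation. Tissue came from a coronal dissection of 400 um that targeted the nucleus accumbens. Every cell shares this genotype and treatment, and there is no unstimulated or unlabelled group, so the comparisons are between cell classes inside the libraries. The libraries are numbered by the suffix of the cell barcodes, which nothing ties to a numbered replicate. Separate animals are not stated, so p-values rest only on how the differences between classes varied among these 3 libraries. That spread was estimated over all classes of a fit, also those not compared.

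Cells were used if 300 or more genes were detected and no more than 20% of their UMIs (the tags that mark single RNA molecules, so that amplified copies count once) were mitochondrial. They numbered 2350, 6079 and 1862 in libraries 1 to 3, and the median cell held 992.5, 2123 and 2705 UMIs. Libraries 1 and 2 shared 11 barcodes among the cells kept, libraries 1 and 3 shared 6, and libraries 2 and 3 shared 17. Marker genes, none of them a member, placed 7046 of the 10291 cells in 14 classes. Markers that the gate did not use were higher in the named class than in any other for 12 of the classes, counting the Drd1 and Drd2 spiny neurons, which share check genes, against the others. The narrowest lead was that of Pvalb interneurons (3010 against 1531 CPM in Drd1 spiny neurons). The exceptions were Sst-Npy interneurons, whose check genes (Gad1, Gad2, Lhx6) were higher in Pvalb interneurons (1308 against 3050 CPM), and fibroblasts, whose check genes (Igf2, Igfbp2, Mgp) were no higher than in mural cells (3538 against 3866 CPM). CPM is the summed UMIs of a gene or gene group, scaled to 1000000 UMIs of the class in that library.

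All 13 mitochondrially encoded genes are members, so the limit of 20% removes cells by the level of members. It took 974 of 11265 cells, and unequally: 31.8% of gated Pvalb interneurons and 16% of astrocytes, against 3.32% of Drd1 spiny neurons and 2.50% of oligodendrocytes. Libraries also stood apart in the members themselves. In the 9 classes with at least 10 cells in every library, library 1 had the lowest mitochondrially encoded level in 9 of 9 and the highest nuclear level in 8 of 9. Library 2 had the highest mitochondrially encoded level in 9 of 9. Values are therefore given by library, and fits held the library as a block.

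Summed nuclear members were highest in Pvalb interneurons, the fast-firing inhibitory cells, and in astrocytes, the glia that take up transmitter and feed neurons. By mean and in libraries 2 and 3 they were lowest in microglia, the resident immune cells of brain, whereas in library 1 glutamatergic neurons (23704 CPM) and MHC class II macrophages (26975 CPM) lay lower. Pvalb interneurons had 53284, 48873 and 44240 CPM in libraries 1 to 3, from only 6, 19 and 5 cells. Astrocytes had 52818, 47890 and 40605 CPM, a mean of 47104 ± 6144 (SD, n = 3). Pvalb interneurons ranked first and astrocytes second among the 14 classes in each library. The lead of the Pvalb cells over astrocytes was smaller than the spread between libraries. It also depended on the scaling, since the total includes mitochondrially encoded UMIs. Over the UMIs of other genes astrocytes had 58302, 55340 and 46471 CPM and Pvalb interneurons 56576, 55089 and 49305. On that scale astrocytes lay above Pvalb interneurons in libraries 1 and 2.

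Both classes of spiny projection neurons, the principal cells of the accumbens, lay lower. Drd1 spiny neurons, of the direct pathway, had 39907, 36356 and 30006 CPM. Drd2 spiny neurons, of the indirect pathway, had 41298, 36576 and 29186 CPM. The means of 35423 ± 5016 and 35687 ± 6105 CPM (SD, n = 3) differed by far less than the spread between libraries. Each library placed both below its astrocytes. Glutamatergic neurons reached 32260 ± 7410 CPM, mural cells 34010 ± 3273 and oligodendrocytes 29491 ± 4479 (SD, n = 3 each). Oligodendrocytes, at 34641, 27318 and 26512 CPM, lay below both spiny classes in each library. Mural cells lay below both in libraries 1 and 2 and above both in library 3, and glutamatergic neurons lay below both in library 1 and above both in library 3.

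Endothelial cells had 27258 ± 916 CPM of nuclear members, MHC class II macrophages 24870 ± 2614 and microglia 23115 ± 4564 (SD, n = 3 each). Microglia ranged from 18668 CPM in library 3 to 27788 in library 1, and lay below the Drd1 and Drd2 spiny neurons of the same library in each of the 3. Of the 92 nuclear members taken singly, 41 had their highest class mean in Pvalb interneurons and 20 in astrocytes, whereas 35 had their lowest in microglia and 15 in T cells. These single maxima and minima lean on classes with few UMIs, among them Pvalb interneurons and T cells. The same counts over all genes are not given here, so they are not read as a trait of the members.

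Mitochondrially encoded members put astrocytes first. Astrocytes had 94055, 134630 and 126219 CPM, a mean of 118301 ± 21415 (SD, n = 3), and ranked first in each library. Pvalb interneurons ranked second in each, with 58199, 112839 and 102730 CPM. Drd1 spiny neurons held 26651, 74137 and 67450 CPM, and Drd2 spiny neurons 26103, 69732 and 60507. The astrocyte value of library 1 exceeded the spiny values of every library.

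The ratio of mitochondrially encoded to nuclear CPM was 2.51 in astrocytes and 1.58 in Drd1 spiny neurons. Without the limit of 20% the mitochondrially encoded mean rose to 137182 CPM in astrocytes and 59356 in Drd1 spiny neurons. By library, astrocytes then had 104052, 149971 and 157524 CPM. Pvalb interneurons had 58199, 157514 and 168807, so they lay above astrocytes in libraries 2 and 3. There the limit had removed 29.6% and 54.5% of Pvalb interneurons, against 13.3% and 30.2% of astrocytes. The first rank of astrocytes in these 2 libraries thus depends on the limit. Microglia (42094 ± 18884 CPM), MHC class II macrophages (44484 ± 21335) and endothelial cells (47424 ± 21224) had the lowest mitochondrially encoded means among classes with 3 usable libraries (SD, n = 3 each). Their SDs, set by the low library 1 and the high library 2, are wider than the gaps between them.

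**Figure D1:**
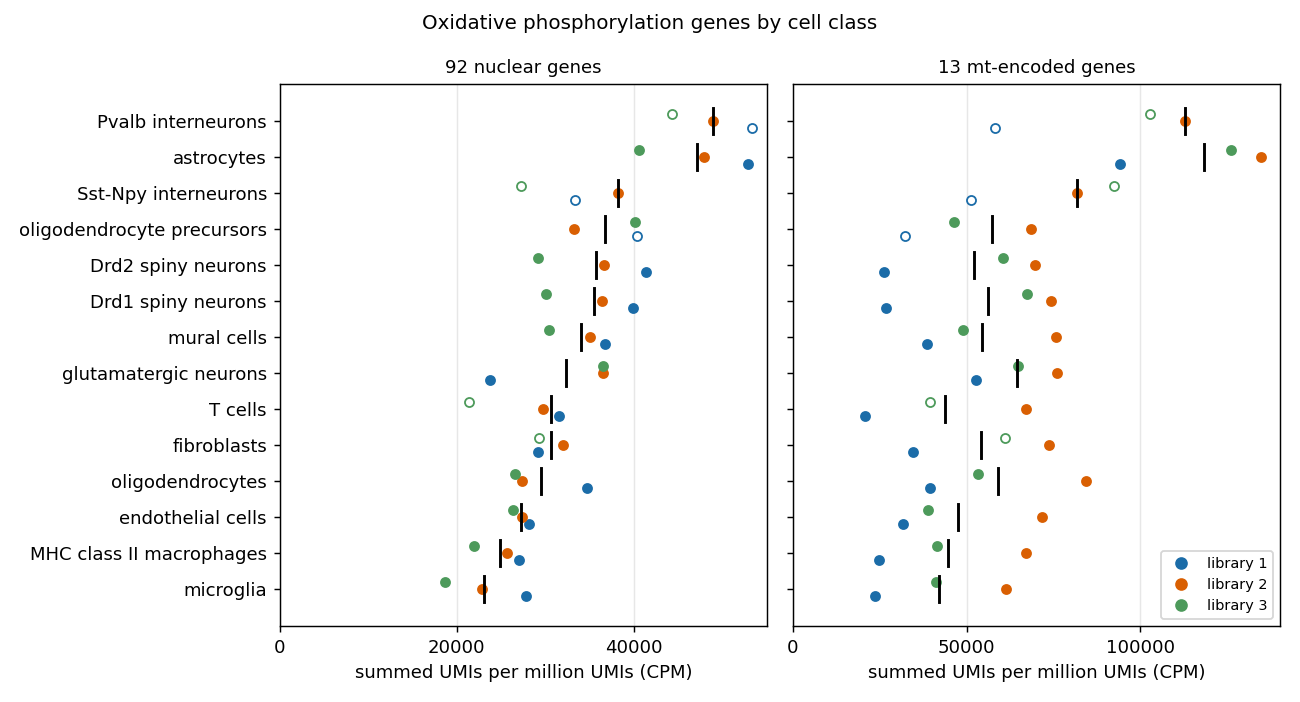
Summed CPM of the 92 nuclear members (left) and the 13 mitochondrially encoded members (right) on linear axes, one point per library and cell class; open points are libraries with fewer than 10 cells of the class and vertical bars are means over the other libraries. Pvalb interneurons and astrocytes lie highest in both panels, and library 1 lies lowest in the right panel in every class.

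The balance between complexes also differed by class. Complex IV took 32.8% of the UMIs of nuclear subunits in astrocytes, 33.9% in mural cells and 31.6% in Pvalb interneurons, against 26.5% in Drd1 and 26.7% in Drd2 spiny neurons. Complex I, the entry point for NADH, took 32.8% in astrocytes and 37.2% in Drd1 spiny neurons. Complex V took 19.6% in astrocytes and 23.2% in Drd1 spiny neurons. The libraries of astrocytes (31.2% to 34.5%) and of Drd1 spiny neurons (24.8% to 27.7%) did not overlap for complex IV. No test was run on these shares.

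Within the mitochondrially encoded UMIs, the shares of mt-Co1 and mt-Nd1 differed between groups of classes that were chosen after the values were seen. The gene mt-Co1 (chrM:5328-6872, GRCm38, a protein-coding gene without introns) encodes the catalytic core of complex IV. It took 1.26% to 4.86% of the mitochondrially encoded UMIs over the libraries of the 5 neuron classes and astrocytes, and 8.17% to 20.1% over those of microglia, MHC class II macrophages, T cells, endothelial cells and mural cells. These ranges did not overlap. The remaining classes (oligodendrocytes, their precursors and fibroblasts) ran from 1.86% to 10.4%, so that the neuron classes alone (1.26% to 3.57%) and all other classes (1.86% to 20.1%) overlapped. Drd1 spiny neurons had 3.0%, 2.48% and 1.91% in libraries 1 to 3, and MHC class II macrophages 20.1%, 13.3% and 14.5%.

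The gene mt-Nd1 (chrM:2751-3707, GRCm38), a membrane subunit of complex I, ran the other way. It took 12.3% to 21.3% in the neuron classes, with a median of 15.9%, and 5.09% to 14.1% in all other classes. These ranges overlap at their edge. Pvalb interneurons had 21.3%, 17.2% and 20.1%, and astrocytes 9.79%, 8.56% and 11.3%. The genes mt-Atp6, mt-Co3 and mt-Co2 were steadier, with class means of 24.9% to 33.2%, 17.5% to 21.4% and 9.42% to 11.5%.

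Every run of 60 bases in the last 300 bases of the mt-Co1 transcript also occurs in transcripts of other annotated genes, none of which is a feature of the matrix. The same holds for over 95% of those runs in mt-Co2, mt-Co3, mt-Atp6, mt-Nd3 and mt-Nd4l, and for none in mt-Nd1, mt-Cytb and mt-Nd4. How reads with several matches were counted is not given in the sources used here, and its part in the shares of mt-Co1 was not tested.

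**Figure D2:**
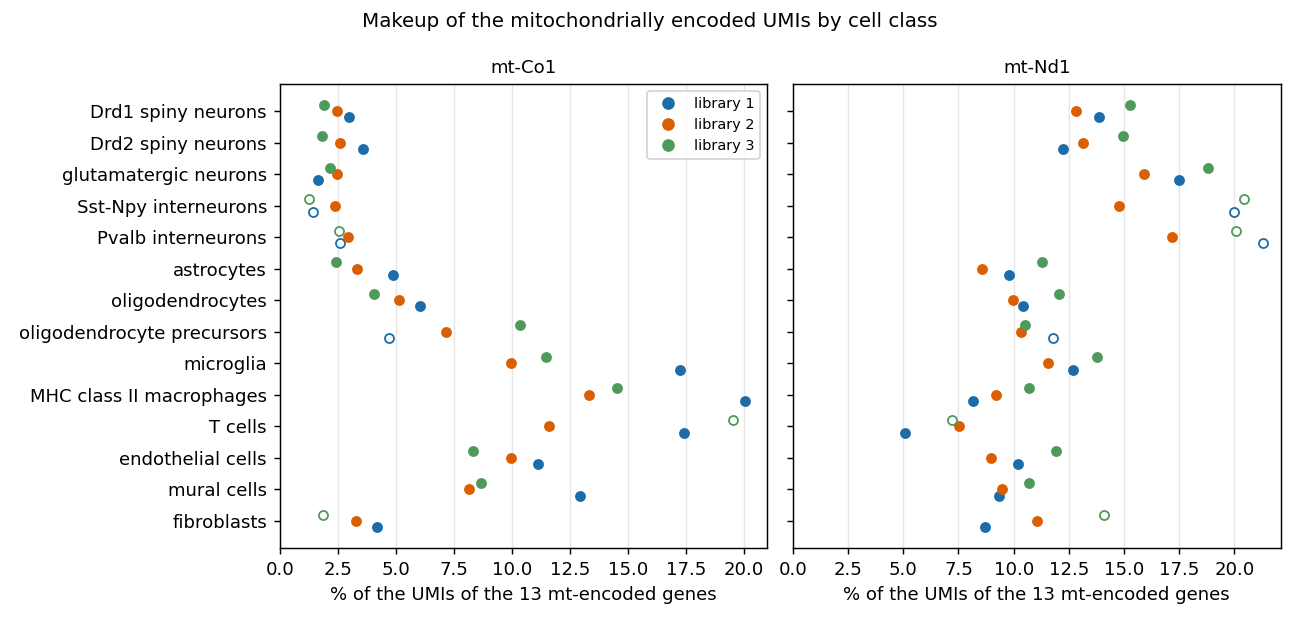
Share of mt-Co1 (left) and mt-Nd1 (right) in the UMIs of the 13 mitochondrially encoded members, in percent, one point per library and cell class; open points are libraries with fewer than 10 cells of the class. The immune and vascular classes from microglia to mural cells lie at 8.17% or more for mt-Co1, the neuron classes and astrocytes at 4.86% or less.

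Several isoforms of complex IV subunits or their paralogs marked single classes. Each isoform is given as its share of the UMIs of its paralog set. UMI counts of different genes cannot be compared as levels, so a share is read between classes and does not measure the ratio of the isoforms. Cox6a2 (chr7:128205435-128206387, minus strand, GRCm38) is the isoform of COX6A best known from heart and skeletal muscle. In Pvalb interneurons it took 68.6%, 54.3% and 70.3% of the UMIs of Cox6a1 and Cox6a2 in libraries 1 to 3. The rule for the members names this gene in this class, so the pattern is only described. Cox6a2 was among the genes of the later fit of Pvalb interneurons, but its call there is not used as support.

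Cox6a2 stood at 1573, 987 and 945 CPM in Pvalb interneurons, from 24, 89 and 26 UMIs. Its 139 UMIs were spread over 25 of the 30 cells, with at most 20 in a single cell. In Drd1 spiny neurons it stood at 0, 8.03 and 0.896 CPM, and in Sst-Npy interneurons at 0, 22.5 and 0. Every library of Pvalb interneurons was far above every library of the other neuron classes. Mural cells of library 1 reached 274 CPM, all 7 UMIs of which came from 1 cell, and the mural mean fell from 93.8 to 2.48 CPM without that cell. Cox6a1, the isoform of most other tissues, stood at 721, 832 and 400 CPM in Pvalb interneurons and at 722, 685 and 522 CPM in spiny neurons (the mean of the Drd1 and Drd2 classes).

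**Figure D3:**
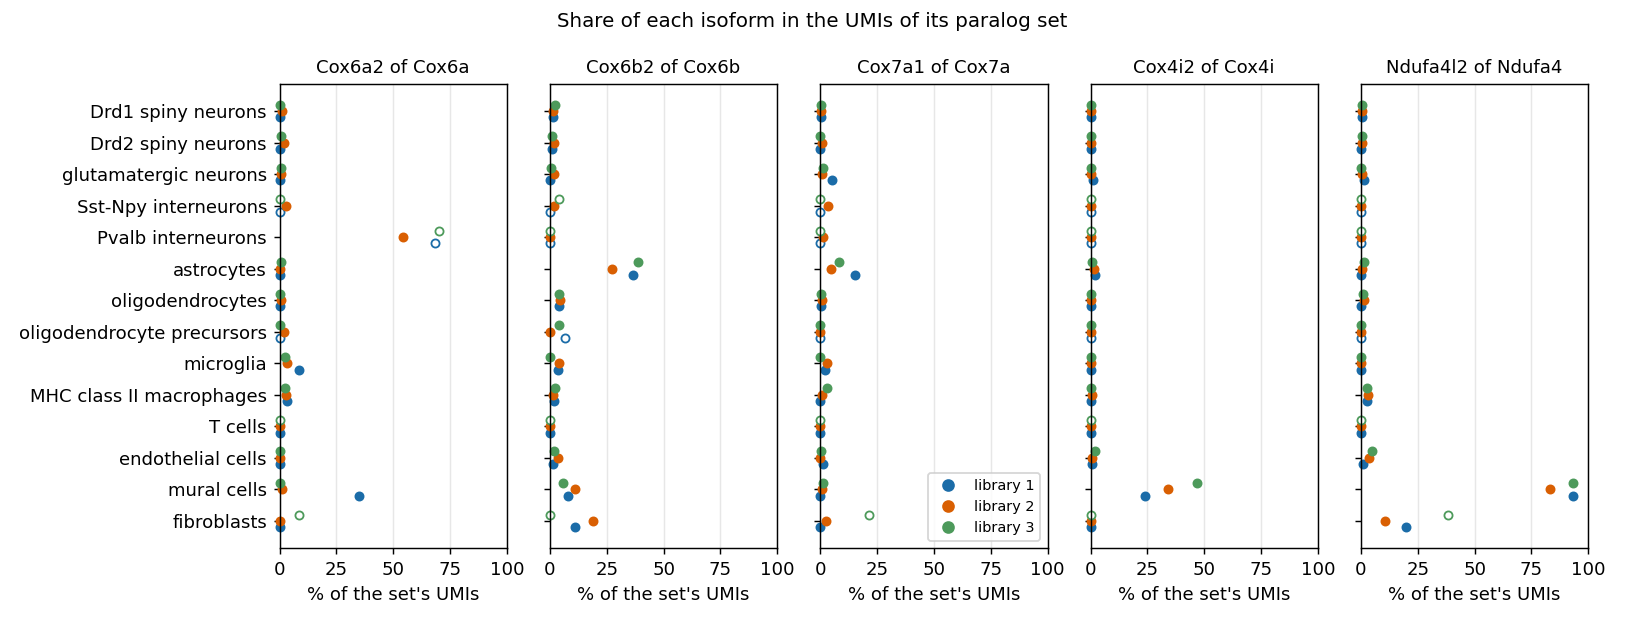
Share of 5 isoforms in the UMIs of their paralog set (Cox6a1 and Cox6a2; Cox6b1 and Cox6b2; Cox7a1, Cox7a2 and Cox7a2l; Cox4i1 and Cox4i2; Ndufa4 and Ndufa4l2), in percent, one point per library and cell class; open points are libraries with fewer than 10 cells of the class. Cox6a2 is high in Pvalb interneurons, Cox6b2 and Cox7a1 in astrocytes, and Cox4i2 and Ndufa4l2 in mural cells; the single high point of Cox6a2 in mural cells rests on 1 cell.

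Astrocytes used 2 isoforms known mainly from other tissues. Cox6b2 (chr7:4751792-4753094, minus strand), best known from testis, took 36.6%, 27.4% and 38.6% of the UMIs of Cox6b1 and Cox6b2. Cox7a1 (chr7:30184144-30186078, plus strand), best known from heart and muscle, took 15.1%, 4.67% and 8.25% of the UMIs of its set. Among classes with at least 10 cells in every library, the next highest share of Cox6b2 was 8.22% ± 2.78 (SD, n = 3) in mural cells. The 1453 UMIs of Cox6b2 were spread over 516 of 911 astrocytes, and the 242 UMIs of Cox7a1 over 158.

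Start regions are shown for Cox6b2 and Cox7a1, which led the comparison of spiny neurons with astrocytes, beside their broadly used paralogs Cox6b1 and Cox7a2. Cox6a1 is shown as well, and Cox8a is not. The source of the regions had no entry for Cox6a2, Cox4i1 and Cox4i2. The regions are the 250 bases before the start annotated by RefSeq, 5′ to 3′ on the gene's strand, on GRCm38.p6. In GENCODE, the source of the gene positions, Cox6b1, Cox7a1, Cox7a2 and Cox6a1 start inside these windows. Capitals mark matches on either strand to GCGCNTGCG (NRF1) or CCGGAAG (ETS factors), 2 motifs of factors known to act on respiratory genes. Cox6b1 spans chr7:30626115-30626364 (minus strand), Cox6b2 chr7:4753095-4753344 (minus), Cox7a2 chr9:79759854-79760103 (minus), Cox7a1 chr7:30183921-30184170 (plus) and Cox6a1 chr5:115348959-115349208 (minus).
Cox6b1: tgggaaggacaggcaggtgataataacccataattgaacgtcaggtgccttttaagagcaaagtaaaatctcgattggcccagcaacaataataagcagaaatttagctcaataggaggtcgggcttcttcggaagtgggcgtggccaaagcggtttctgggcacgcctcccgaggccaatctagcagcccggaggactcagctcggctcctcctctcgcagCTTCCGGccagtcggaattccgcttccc
Cox6b2: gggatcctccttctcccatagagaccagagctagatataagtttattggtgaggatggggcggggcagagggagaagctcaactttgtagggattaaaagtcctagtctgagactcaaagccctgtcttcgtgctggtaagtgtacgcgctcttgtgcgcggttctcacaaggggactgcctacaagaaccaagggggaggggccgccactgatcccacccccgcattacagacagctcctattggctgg
Cox7a2: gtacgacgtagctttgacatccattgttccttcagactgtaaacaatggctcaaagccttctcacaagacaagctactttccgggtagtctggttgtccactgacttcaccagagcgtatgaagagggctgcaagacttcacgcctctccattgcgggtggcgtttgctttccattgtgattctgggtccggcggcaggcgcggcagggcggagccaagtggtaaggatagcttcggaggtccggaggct
Cox7a1: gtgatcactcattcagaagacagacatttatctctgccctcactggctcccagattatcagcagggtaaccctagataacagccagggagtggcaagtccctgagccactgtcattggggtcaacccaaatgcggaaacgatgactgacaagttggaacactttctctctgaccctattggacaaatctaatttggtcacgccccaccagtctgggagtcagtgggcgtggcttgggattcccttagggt
Cox6a1: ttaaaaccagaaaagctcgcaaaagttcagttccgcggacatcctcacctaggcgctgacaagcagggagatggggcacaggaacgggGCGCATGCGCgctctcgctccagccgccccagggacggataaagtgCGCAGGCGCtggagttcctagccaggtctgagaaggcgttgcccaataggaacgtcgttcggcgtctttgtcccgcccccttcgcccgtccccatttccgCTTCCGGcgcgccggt

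The broadly used Cox6b1 held 1 ETS match, 28 to 22 bases before the start, and the window of the astrocyte isoform Cox6b2 held none of either motif. Neither Cox7a1 nor Cox7a2 had a match. Cox6a1 held an ETS match 16 to 10 bases before the start and NRF1 matches at 162 to 154, at 161 to 153 (the other strand, overlapping the first) and at 116 to 108 bases. By the GENCODE positions the ETS matches of Cox6b1 and Cox6a1 lie inside the genes. Of the 92 nuclear members 73 had an entry. A gene was counted if any window listed for it matched. The NRF1 motif was found in 17 of the 73 (23.3%), against 5.88% of all 27025 genes with an entry, and the ETS motif in 13 (17.8%), against 7.83%. For other motifs, searched on both strands and absent from the 5 windows shown, the shares were 2.74% of members and 1.30% of all genes for TNAAGGTCA (ERR), and 19.2% and 18.5% for ACGTG (HIF). With windows averaged by gene, members had a median GC content of 56.4%, against 52.4% for all genes. These matches describe letters in a window and say nothing of binding.

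Mural cells, the pericytes and smooth muscle cells around vessels, used another pair. Ndufa4l2 (chr10:127514967-127517154, plus strand) is a paralog of the complex IV subunit Ndufa4 known for its rise in low oxygen. It took 93.3%, 83.2% and 93.4% of the UMIs of the pair in mural cells. Endothelial cells had 0.855%, 3.33% and 4.8%. Cox4i2 (chr2:152754173-152765037, plus strand), the isoform of COX4 known from lung and oxygen-sensing cells, took 24.0%, 34.0% and 46.8% of its set in mural cells and at most 2.03% in any library of endothelial cells. The mural libraries lay above all endothelial libraries for both genes. The 556 UMIs of Ndufa4l2 were found in 165 of 209 mural cells and the 146 of Cox4i2 in 87. An opposite-strand gene, Shmt2, overlaps Ndufa4l2, and another, Itgad, overlaps Cox6a2.

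Other paralog sets shifted between larger groups of classes. Cox7a2l, a COX7A relative that helps to join complexes III and IV into supercomplexes, took 60.4%, 48.1% and 70.1% of its set in microglia and 46.9%, 48.7% and 51.3% in endothelial cells. In Drd1 spiny neurons it took 21.7%, 27.4% and 23.4%, and in astrocytes 14.7%, 21.1% and 23.8%. Microglial and endothelial libraries were all above those of spiny neurons and astrocytes. Of the 3 genes for the c subunit of the ATP synthase ring, Atp5g3 took 30.1% to 37.5% as class means in the neuron classes and astrocytes and 13.5% to 24.8% elsewhere. Atp5g2 shared 54.0% and Atp5g1 31.2% of the 60-base runs at their ends with other genes' transcripts, so their counts are less certain. Cox8a supplied at least 99.4% of the UMIs of its set in every class, and Cox8b, Cox8c and Cox7b2 held 7, 0 and 29 UMIs in all gated cells.

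Sums of counts by library and class went into edgeR's quasi-likelihood test, with p-values adjusted over all genes tested by Benjamini-Hochberg at 0.05. The fit of 9 classes tested 8639 genes and 98 of the 105 members. The members not tested were Atp5s, Cox6a2, Cox7b2, Cox8b, Cox8c, Ndufaf6 and mt-Nd6. A member could pass the filter on low counts through 1 class alone, and fold changes are on the scale of the fit, in which the median of all genes need not be 0. A bracketed value followed by an SE is a log2 fold change.

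Spiny neurons were compared with astrocytes first. Respiratory chain genes were lower in spiny neurons in most cases, and Cox6b2 and Cox7a1, the isoforms of astrocytes, led the list. Of 98 members 61 were lower (62.2%) and 0 higher, against 28% and 35% of all genes tested (63% in either direction), and DESeq2 gave 65 lower and 1 higher. The libraries of the 2 sides did not overlap for 34 members, against 64.1% of all genes. By complex, 14 of 16 nuclear genes of complex IV, 6 of 8 of complex III, 3 of 4 of complex II, 17 of 43 of complex I and 9 of 15 of complex V were lower. The 43 of complex I include the 7 assembly factors and other proteins that are not subunits, none of which passed. The median log2 fold change was -0.56 over nuclear and -1.53 over mitochondrially encoded members, against 0.17 over all genes.

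Cox6b2 stood at 9.22, 11 and 9.33 CPM in spiny neurons and at 931, 409 and 647 CPM in astrocytes, a log2 fold change of -6.25 (SE 0.28, adjusted p = 3.42e-24, edgeR). Cox7a1 stood at 2.37, 3.77 and 0.896 CPM against 214, 53.3 and 90.6 CPM (-5.10, SE 0.39). Cox4i2 followed with -4.80 (SE 0.49), which rests on 6 UMIs in Drd1 and 3 in Drd2 spiny neurons and 61 in astrocytes. The groups did not overlap for any of these. Abundant subunits moved less: Cox8a, a small subunit of complex IV, was at 828, 922 and 824 CPM against 3003, 2410 and 2435 (-1.99, SE 0.19). Cox6a1 was at 722, 685 and 522 CPM against 1684, 1561 and 1450 (-1.70, SE 0.20). Uqcr11, a small subunit of complex III, was at 1006, 619 and 650 CPM against 2110, 1134 and 1198 (-1.35, SE 0.20).

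All 12 mitochondrially encoded members tested were lower, from mt-Co1 (-2.13, SE 0.20) to mt-Atp8 (-0.66, SE 0.24). The core subunits of complex V did not pass: Atp5a1 had 0.35 (SE 0.21, adjusted p = 0.145) and Atp5b -0.06 (SE 0.19, adjusted p = 0.808, edgeR). Nor did Ndufa4 (-0.09, SE 0.21) or Ndufs1 (0.21, SE 0.26), the iron-sulfur subunit of complex I. Without the limit of 20%, 58 members were lower and 1 higher, and without library 3, 49 were lower. The call of mt-Atp8 was lost without library 3.

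Among related genes that are not members, all 4 tested electron carriers were lower in spiny neurons, with Etfa, of the flavoprotein that takes electrons from fatty acid oxidation, at -2.37 (SE 0.26) and Cycs, cytochrome c, at -0.54 (SE 0.21), a call lost without library 3. In the citric acid cycle 1 of 11 was higher and 3 lower. Ckmt1, the mitochondrial creatine kinase, was higher by 3.08 (SE 0.37) and Atpif1, the inhibitor of ATP synthase, by 0.96 (SE 0.25). The coactivators of mitochondrial biogenesis split, with Ppargc1b higher (4.16, SE 0.66) and Ppargc1a lower (-0.97, SE 0.30). Oligodendrocyte check markers summed to 811, 1185 and 4341 CPM in the astrocytes of libraries 1 to 3 and to 782, 663 and 610 in Drd1 spiny neurons. Library 3 thus carries most of that gap, and their part in the result was not tested.

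**Figure D4:**
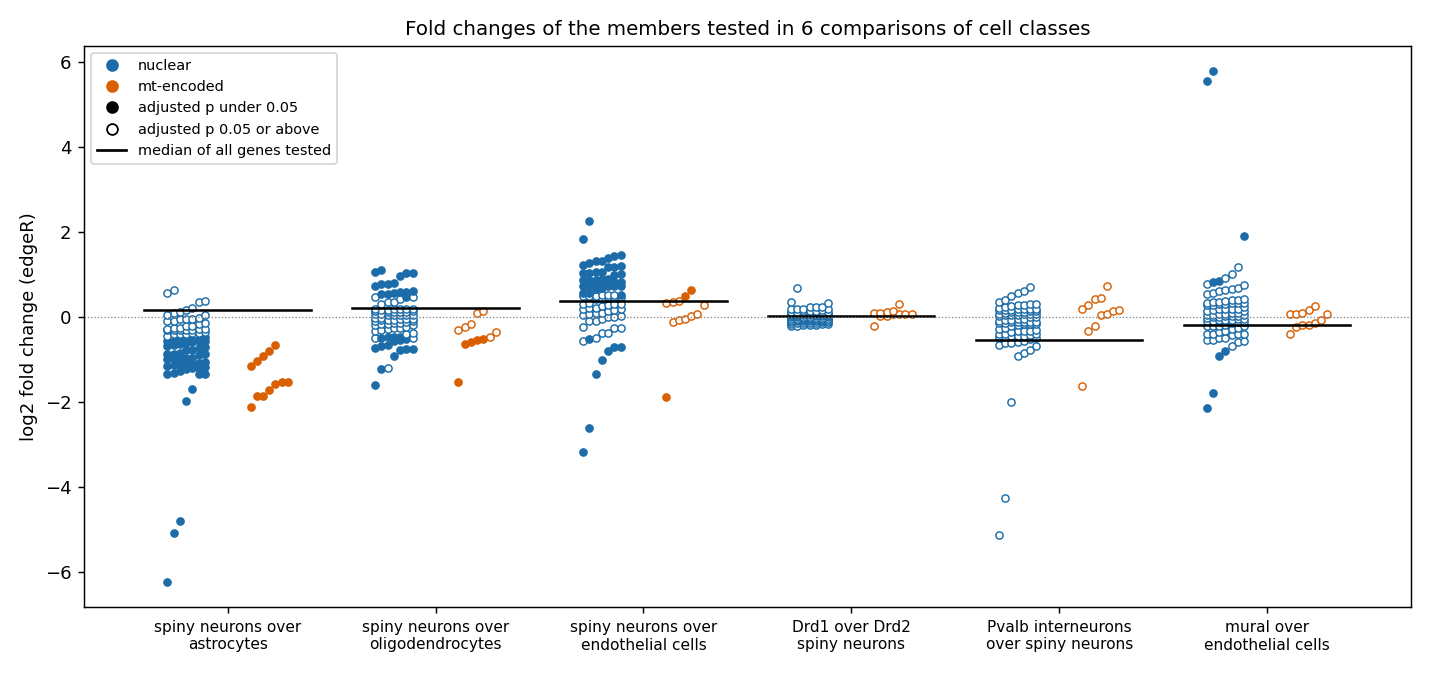
Log2 fold change of each member tested in 6 comparisons of cell classes (edgeR), with Cox6a2 left out of the Pvalb comparison; blue points are nuclear and orange points mitochondrially encoded members, filled where the adjusted p was under 0.05, and the horizontal bar is the median of all genes tested. In the first comparison 61 of 98 members are filled and all of them lie below 0, whereas in the Drd1 over Drd2 comparison none is filled.

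Against oligodendrocytes, the myelinating glia, spiny neurons differed in both directions. Ndufs1 and Ndufs3 of complex I and Atp5a1 of complex V were higher in the neurons, and Cox6a1 of complex IV and Uqcrh of complex III lower. Of 98 members 16 were higher (16.3%) and 21 lower (21.4%), against 37.2% and 25.6% of all genes tested (62.8% in either direction). The libraries of the 2 sides did not overlap for 32 members, against 63.6% of all genes. The median was -0.04 over nuclear and -0.42 over mitochondrially encoded members, against 0.20 over all genes.

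Ndufs1 was at 92.2, 110 and 124 CPM in spiny neurons and 50.3, 32.6 and 41.5 in oligodendrocytes (1.10, SE 0.28). Atp5a1, the alpha subunit of the ATP synthase head, was at 616, 573 and 544 CPM against 179, 254 and 226 (1.03, SE 0.21), and Atp5g3 at 479, 448 and 387 against 173, 183 and 139 (1.05, SE 0.23). These groups did not overlap. Ndufs3, another core subunit of complex I, was higher by 0.96 (SE 0.23), and the complex I assembly factors Ndufaf7 and Ndufaf1 by 1.03 (SE 0.29) and 0.79 (SE 0.31).

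On the other side Cox6b2 was lower (-1.61, SE 0.32), as were Cox6a1 at 722, 685 and 522 CPM against 1354, 1019 and 1081 (-1.22, SE 0.20), Atp5g2 (-0.91, SE 0.19), Ndufaf2 (-0.75, SE 0.27), Uqcrh (-0.75, SE 0.20) and Ndufb9 (-0.73, SE 0.20). For Cox6a1 the groups did not overlap. Of the mitochondrially encoded members 5 of 12 were lower, led by mt-Co1 (-1.54, SE 0.20). In the citric acid cycle 9 of 11 genes were higher, Idh3b most (1.23, SE 0.24), and Ppargc1a was higher by 4.53 (SE 0.54). The split of members depended on scaling: leaving mitochondrially encoded genes out of it gave 5 higher and 39 lower, and DESeq2 gave 31 higher and 15 lower. Without library 3, 3 were higher and 18 lower, and the calls of Ndufs1, Ndufs3 and Ndufaf2 were lost, those of Ndufaf7 and Ndufs1 without library 2, and those of Ndufaf7 and Ndufaf1 without library 1.

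Against endothelial cells, which line the vessels, spiny neurons had higher levels of Ndufs1 and of several complex I assembly factors, and lower levels of Cox4i2, Ndufa4l2 and Cox7a2l. Ndufs1 was at 92.2, 110 and 124 CPM in spiny neurons and 5.73, 36.9 and 15.0 in endothelial cells (2.27, SE 0.37). The assembly factors Ndufaf5 (1.83, SE 0.42) and Ndufaf4 (1.45, SE 0.30) and the complex I subunits Ndufa10 (1.42, SE 0.26) and Ndufa5 (1.38, SE 0.23) were also higher, as was Atp5g3 (1.32, SE 0.25). Of 98 members 40 were higher (40.8%) and 9 lower (9.18%), against 37.2% and 23.2% of all genes tested (60.4% in either direction), so the share higher is near that of all genes. The libraries of the 2 sides did not overlap for 48 members, against 62.3% of all genes. The median over nuclear members was 0.49, against 0.38 over all genes. By complex, 24 of 43 nuclear genes of complex I, 3 of 4 of complex II and 7 of 15 of complex V were higher, against 2 of 16 of complex IV. The 43 of complex I include 7 assembly factors and other proteins that are not subunits, of which 5 were higher.

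Members lower in spiny neurons were Cox4i2 (-3.19, SE 0.80), which rests on 1, 3 and 4 UMIs in the endothelial cells of libraries 1 to 3 and whose call was lost when the class lead was raised by 1 marker, Ndufa4l2 (-2.61, SE 0.44), Cox7a2l at 223, 212 and 189 CPM against 516, 400 and 607 (-1.35, SE 0.21), Ndufa7 (-1.01, SE 0.20), Atp5g2 (-0.81, SE 0.20) and Uqcrh (-0.72, SE 0.21). The libraries of Cox7a2l did not overlap. Among mitochondrially encoded members mt-Nd3 (0.63, SE 0.24) and mt-Nd1 (0.50, SE 0.22) were higher and mt-Co1 (-1.89, SE 0.20) was lower. The calls of mt-Nd3 and mt-Nd1 were lost in 9 and 10 of 12 alternatives, among them the omission of any 1 library, and mt-Nd1 fell to -0.03 in 1 of them. All 11 citric acid cycle genes tested were higher, Idh3a most (2.05, SE 0.30), and Ucp2, an uncoupling protein family member, was lower (-5.00, SE 0.38).

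This split also moved with the settings. Leaving mitochondrially encoded genes out of scaling gave 17 higher and 15 lower, and fitting the compared classes alone gave 17 and 23. Without library 1 the split was 11 and 15, without library 2 it was 11 and 14, and without library 3, 13 and 9. The call of Ndufaf5 was lost without library 3.

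The Drd1 and Drd2 spiny neurons gave no difference in any member. Of 98 members 0 passed in edgeR, 0 had an unadjusted p under 0.05 and 0 passed in DESeq2, whereas 0.394% of all genes tested passed. Log2 fold changes of Drd1 over Drd2 ran from -0.22 for mt-Nd5 (SE 0.24) to 0.68 for Atp5sl (SE 0.35), and the median was -0.00 over nuclear and 0.08 over mitochondrially encoded members. Atp5b stood at 682, 663 and 504 CPM in Drd1 and 681, 681 and 478 CPM in Drd2 spiny neurons, and Cox8a at 810, 934 and 877 against 847, 910 and 770. The libraries of the classes overlapped for every member, whereas they did not for 6.1% of all genes. In simulated data of this comparison 96% of 4-fold and 17% of 2-fold changes were recovered, so changes of 2-fold or less could have been missed. None of the 35 related genes tested passed either.

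Pvalb interneurons were set against spiny neurons in a separate fit of all 14 classes (7048 genes, 96 members), because their libraries held 6, 19 and 5 cells. Cox6a2, which the rule names in this class and which did not pass the filter on low counts in the fit of 9 classes, is left out of the counts that follow. Its spiny values were 0, 10.5 and 2.41 CPM. Of the other 95 members 0 passed in edgeR and 5 had an unadjusted p under 0.05, against 3.19% higher and 9.66% lower among all genes tested (12.9% in either direction). The libraries did not overlap for 18 members, against 27.9% of all genes. The median was -0.11 over nuclear and 0.15 over mitochondrially encoded members, against -0.54 over all genes, and 71 of 83 nuclear and 11 of 12 mitochondrially encoded members lay above that of all genes.

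The member nearest to the threshold was mt-Nd1, at 12387, 19385 and 20611 CPM in Pvalb interneurons against 3449, 9343 and 9684 (0.74, SE 0.27, adjusted p = 0.0544, edgeR). Ndufa4, of complex IV, was at 3211, 3438 and 2363 CPM against 1114, 1745 and 1139 (0.62, SE 0.28, adjusted p = 0.134). For both genes the groups did not overlap. Of the related genes 1 of 33 passed, Ppargc1a, higher by 1.86 (SE 0.41), a call lost without library 2. In simulated data this comparison recovered 55% of 4-fold and 11% of 2-fold changes. It also called 14 unchanged genes, against 1 to 3 in the other comparisons, so its calls are less certain. Of the members other than Cox6a2, DESeq2 called 18 and the fit of the compared classes alone 28, all of them higher in Pvalb interneurons. Their nuclear medians were 0.41 and 0.33. The shares of all genes called in these 2 fits are not given here, and the median of all genes ran from -0.76 to 0.11 over the alternatives. The 2 counts are therefore not read as a result about the members.

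Mural and endothelial cells, both of the vessel wall, differed in few members, most in Ndufa4l2 and Cox4i2. Ndufa4l2 stood at 1644, 2253 and 2016 CPM in mural cells and 5.73, 36.9 and 48.7 in endothelial cells (5.78, SE 0.38, adjusted p = 6.64e-17, edgeR). Its paralog Ndufa4 was at 117, 454 and 143 CPM against 665, 1072 and 966 (-2.14, SE 0.30). Cox4i2 was at 470, 498 and 640 CPM against 5.73, 7.90 and 15.0 (5.56, SE 0.49), while Cox4i1 was at -0.08 (SE 0.25) and did not pass. The libraries of Ndufa4l2, Ndufa4 and Cox4i2 did not overlap between the classes.

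In all, 5 of 98 members were higher (5.10%) and 4 lower (4.08%), against 6.6% and 9.6% of all genes tested (16.2% in either direction), so the shares are not above the background. DESeq2 gave 12 higher and 2 lower, and the compared classes alone 13 and 1. The libraries did not overlap for 26 members, against 23.9% of all genes. The others higher were Cox6b2 (1.92, SE 0.57), Cox8a at 2387, 1651 and 1748 CPM against 963, 803 and 850 (0.83, SE 0.24) and Ndufs7 (0.84, SE 0.30). The others lower were Ndufaf7 (-1.80, SE 0.62), Ndufa7 (-0.93, SE 0.27) and Cox7a2l (-0.81, SE 0.28). No mitochondrially encoded member of 12 passed in edgeR, and 0 had an unadjusted p under 0.05. Of related genes Higd1b, a hypoxia-inducible domain protein, was higher by 7.35 (SE 0.48) and Ucp2 lower (-2.38, SE 0.57), a call lost without library 3.

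Of these 9 calls, 4 held without library 1, 4 without library 2 and 5 without library 3. Those of Ndufs7 and Cox7a2l were lost without any 1 library, that of Cox6b2 without library 1 or 2, and that of Cox8a without library 2 or 3. Those of Ndufa7 were lost without library 1 or 3 and those of Ndufaf7 without library 1 or 2. Endothelial check markers summed to 27.6 CPM in mural cells and mural ones to 40.2 CPM in endothelial cells. Oligodendrocyte check markers summed to 3717, 1435 and 334 CPM in the mural cells of libraries 1 to 3 and to 682, 919 and 880 CPM in endothelial cells, so they were higher in mural cells in libraries 1 and 2 and lower in library 3. Their part in the result was not tested.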

How the data were processed

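The authors made 10x Genomics Single Cell 3′ v2 libraries, per the labels, and deposited raw UMI counts (whole numbers, 1 for each cell and gene) that Cell Ranger 3.0.0 wrote, per the file headers. The build is mm10, per the submitters' processing notes. The matrix pools 3 libraries (11625 cells, 28001 features), and 0 columns of per-sample values were left unused. Members, marker lists and related genes were chosen with earlier results of these data known.

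A cell took the broad class with most distinct markers holding a UMI (at least 3 of 6, leading by 2). Neurons took a neuron class by at least 2 of 6 with a lead of 1, and Pvalb interneurons also needed a Pvalb UMI. In all, 2211 cells had no broad class and 1034 of 4644 neurons no neuron class. Of 129 marker symbols 127 matched, and of 44 related genes 43. Doublets were treated only by the lead over other classes, and no doublet caller was run. A class mean of CPM uses libraries with at least 10 cells.

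Counts were added up by class within each library and tested with edgeR 4.0.16 (R 4.3.3, limma 3.58.1; TMM, filterByExpr, robust prior, bias-adjusted deviances), with the library as block, since the classes of a library come from the same tissue. The SE of a log2 fold change was taken from its F statistic (change over root F). DESeq2 1.42.0 was an alternative. Pvalb interneurons were fitted with a minimum of 5 cells, chosen after their cell numbers were seen. Tested on simulated data with 200 changed genes, the fit recovered 93% of 4-fold and 33% of 2-fold changes for spiny neurons against astrocytes (8010 genes). For mural against endothelial cells it recovered 87% and 18% (8192 genes). The simulated counts had the same fixed dispersion for every gene and no library effect in the compared classes. Only genes above a minimum of UMIs were changed. Recovery in the real data may therefore differ. Named members are, per comparison, up to 6 nuclear ones in each direction with the largest log2 fold change among those past the threshold with the same sign in all libraries, the highest and lowest mitochondrially encoded ones, and the paralog sets. Other members given with values (Atp5a1, Atp5b, Ndufa4, Ndufs1, mt-Nd1) were chosen after their values were seen. Gene positions are from GENCODE vM21. Tables used pandas 2.3.3, numpy 2.4.6 and scipy 1.17.1, and figures matplotlib 3.10.9.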

Additional observations from a re-analysis of the deposited data

How the results depend on the processing

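Members called against astrocytes numbered 47 to 79 over all alternatives (61 as reported), and Drd1 against Drd2 spiny neurons gave 0 in each. The share of all genes called under each alternative is not given here. Against oligodendrocytes (37) the count was 14 with no replicate block, and 21 to 32 leaving out 1 library. Against endothelial cells (49) it was 31 with no filter on low counts, 32 with mitochondrially encoded genes left out of scaling, 29 with the class lead raised by 1 marker, and 22 to 26 leaving out 1 library. For Pvalb interneurons against spiny neurons each count includes Cox6a2, which the rule names in this class and whose call is no support. The count (1 as reported, Cox6a2) was 19 with DESeq2, 2 with no filter, 2 with mitochondrially encoded genes left out of scaling, 5 with no limit on mitochondrial UMIs, 2 with cells of at least 1000 UMIs, and 29 with the compared classes alone. Mural against endothelial cells (9) gave 14 with DESeq2, 4 with no replicate block, 5 with the raised lead, 14 with the compared classes alone, and 5 to 6 leaving out 1 library. The library block is set by the design: without it, 47 members were called against astrocytes and 36 against endothelial cells. In Pvalb interneurons 0 were called without it, with Cox6a2 left out. No call of the nuclear members named by the rule reversed. Medians over nuclear members changed sign: they ran from -0.40 to 0.14 against oligodendrocytes, from -0.05 to 0.02 for Drd1 over Drd2 and from -0.31 to 0.41 in Pvalb interneurons, where the median of all genes ran from -0.76 to 0.11. In 50 cases 1 of 13 calls of 12 named members was lost, among them Cox4i2 against endothelial cells with the raised lead and Ndufaf5 without library 3. The cause was not tested.

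In CPM, Sst-Npy interneurons moved from 81746 (mitochondrially encoded) to 114811 with no limit, 83708 with the raised lead and 75158 with every library, and from 38146 (nuclear) to 35517, 37114 and 32880, and 41542 over UMIs of genes other than the mitochondrially encoded. Pvalb interneurons moved from 112839 to 157514, 116330 and 91256, and from 48873 (nuclear) to 43424 with no limit and 55089 (library 2 alone) over those UMIs. Over those UMIs the nuclear means were also 53371 in astrocytes (55340 in library 2), 32079 in T cells and 28623 in endothelial cells. T cells (30675 as reported) had 28451 with the raised lead and 27564 with every library. Cox6a2 in Pvalb interneurons was 966 to 1280 CPM leaving out 1 library. The use of every library, the minimum of 5 cells and leaving out the mural cell of highest Cox6a2 were chosen after seeing the data. The planned fits that could not be made, Pvalb interneurons with the raised lead, and mural against endothelial cells of at least 1000 UMIs, had too few cells. Low depth limits classes of few cells most.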
